A study of Homo sapiens with 18 samples.

Results

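Chromatin accessibility was mapped by ATAC-seq in 3 derivatives of K562, a human chronic myelogenous leukaemia cell line, and 1495 of the 85549 accessible regions found across the 9 libraries carried a peak in all 3 G-K562 libraries and in no library of the other lines. These regions are described here. V-K562 cells are the control line, B-K562 cells express wtBASP1, and G-K562 cells express BASP1-G2A, a mutant of the transcriptional corepressor BASP1 that cannot receive the N-terminal myristoyl group. Each derivative is a stably transfected pool kept under G-418, so each line is a single pool and a difference between lines cannot be told apart from a difference between pools. RNA-seq was done on 3 further libraries of each line. The regions were chosen by the peak calls of all 9 ATAC-seq libraries, whose overlapping intervals were merged before the presence of a peak in each library was read. No ATAC-seq comparison of them between lines is therefore given as a test. Only RNA-seq, which the choice did not use, was tested. BASP1 RNA matched the labels. It was 7, 5 and 7 in V-K562, 6849, 6618 and 6189 in B-K562 and 9323, 12538 and 8124 in G-K562, so the mutant was higher than wtBASP1 by 0.56 ± 0.14 (log2, SE), adjusted p = 0.00186, limma.

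ATAC-seq inserts sequencing adapters where DNA is free of tightly packed nucleosomes, so its peaks mark promoters, enhancers and other sites held open by bound proteins. In K562 cells many distal sites are bound by GATA factors, which drive the erythroid programme that these cells partly express. RUNX factors, which bind DNA together with CBFB, act in megakaryocytic and other haematopoietic lineages, and AP-1, forkhead and homeobox factors each bind short sequences of their own.

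The following windows are chosen examples from the 1495 and not a sample of them. They were read from GRCh38 on the plus strand and reach 100 bases to each side of the mean summit of a region. Capitals mark every match, on either strand, to the 22 short motifs searched (given with their letters below). The first belongs to a region among the highest, upstream of FTL.
chr19:48963895-48964095: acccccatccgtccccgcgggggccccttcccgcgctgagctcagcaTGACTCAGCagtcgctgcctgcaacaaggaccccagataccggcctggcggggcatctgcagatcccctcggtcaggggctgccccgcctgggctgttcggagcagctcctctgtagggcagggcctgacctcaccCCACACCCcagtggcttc
The next 2 belong to regions closest to genes with some of the largest rises in RNA: the HDAC9 promoter and a site 2.37 kb upstream of BCHE.
chr7:18086417-18086617: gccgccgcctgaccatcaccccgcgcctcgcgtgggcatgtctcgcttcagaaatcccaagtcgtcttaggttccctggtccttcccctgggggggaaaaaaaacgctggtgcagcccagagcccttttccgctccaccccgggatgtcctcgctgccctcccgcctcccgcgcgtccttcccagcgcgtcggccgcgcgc
chr3:165839740-165839940: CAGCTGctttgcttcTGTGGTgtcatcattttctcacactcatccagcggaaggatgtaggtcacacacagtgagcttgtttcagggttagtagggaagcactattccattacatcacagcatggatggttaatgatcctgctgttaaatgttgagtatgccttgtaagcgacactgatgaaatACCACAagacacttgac
The last 5 belong to genes or loci with several of the regions. Those in introns of GPC5, UTRN, ZNF608 and MAML3 were picked because they hold the RUNX motif, so its frequency cannot be read from them. They are followed by a site just upstream of H19.
chr13:92500300-92500500: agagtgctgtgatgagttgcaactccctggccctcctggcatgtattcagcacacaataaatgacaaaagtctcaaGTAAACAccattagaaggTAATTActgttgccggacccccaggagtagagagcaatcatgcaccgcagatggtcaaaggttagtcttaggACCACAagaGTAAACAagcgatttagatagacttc
chr6:144286161-144286361: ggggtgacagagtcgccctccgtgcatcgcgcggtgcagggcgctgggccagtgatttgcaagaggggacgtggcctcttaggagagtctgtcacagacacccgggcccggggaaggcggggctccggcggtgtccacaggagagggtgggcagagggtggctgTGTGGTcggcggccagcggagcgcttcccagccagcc
chr5:124649820-124650020: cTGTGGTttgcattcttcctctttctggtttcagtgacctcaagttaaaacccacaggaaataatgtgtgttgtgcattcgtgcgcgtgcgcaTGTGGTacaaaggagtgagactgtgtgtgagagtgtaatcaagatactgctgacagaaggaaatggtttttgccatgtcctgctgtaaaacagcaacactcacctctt
chr4:140071911-140072111: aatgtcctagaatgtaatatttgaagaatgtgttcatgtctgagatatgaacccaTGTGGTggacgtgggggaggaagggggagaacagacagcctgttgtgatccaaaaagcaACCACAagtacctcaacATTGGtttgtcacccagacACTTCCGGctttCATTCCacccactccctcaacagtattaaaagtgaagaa
chr11:1998380-1998580: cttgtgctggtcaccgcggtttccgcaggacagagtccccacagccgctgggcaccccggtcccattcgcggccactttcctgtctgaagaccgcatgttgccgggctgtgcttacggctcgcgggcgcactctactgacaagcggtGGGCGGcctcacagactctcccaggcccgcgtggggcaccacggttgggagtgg
The windows ranged from GC-rich promoters with no match, as at HDAC9, to less GC-rich distal sites with several, as in GPC5, which held a TAATTA close to the summit and 2 forkhead matches on either side of it.

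The regions were mostly low and narrow. Their length had a median of 341 bases, against 371 for all 85549 regions. The mean summit pileup of the 3 G-K562 libraries, in sequencing tags at the highest point of the peak, ranged from 14 to 216 with a median of 29. At the 26984 regions with a peak in all 9 libraries the median was 85 tags in G-K562 replicate 1, 82 in replicate 2 and 86 in replicate 3. The V-K562 libraries were lower there, with medians of 67 to 70 tags, and the B-K562 libraries lay between, at 75 to 77 tags. All 3 libraries reached 30 tags at 504 of the 1495 regions, 50 tags at 142 and 100 tags at 9. Within a region the 3 libraries were close to each other, with the highest less than 2-fold above the lowest at 1423 regions (95.2%).

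Many regions sat near the limit of peak calling. The lowest 2, upstream of TANK and in ARMC4P1, had summits of 13, 14 and 15 tags and of 11, 13 and 18 tags in replicates 1, 2 and 3. Just outside the rule stood 2012 regions with a peak in only 2 G-K562 libraries and no other, with a median of 23 tags, and 5547 with a peak in 1. A further 772 regions had peaks in all 3 G-K562 libraries and 1 V-K562 library, with a median of 30.3 tags in G-K562 and 22 tags in that V-K562 library. Another 386 had 1 B-K562 library besides, at medians of 29.3 and 22 tags. Coverage below the peak threshold was not used here, so the lack of a peak in a library is not a measure of closed chromatin. Leaving out a library removes a condition of the rule, so the count could not fall. It was largest without G-K562 replicate 2, at 2400 regions. The number of peaks was 48408 to 51199 per G-K562 library, 53862 to 55570 per V-K562 library and 47111 to 48905 per B-K562 library. The part of the higher G-K562 pileup at regions shared by all libraries in the peaks gained or missed near that limit was not tested.

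**Figure D1:**
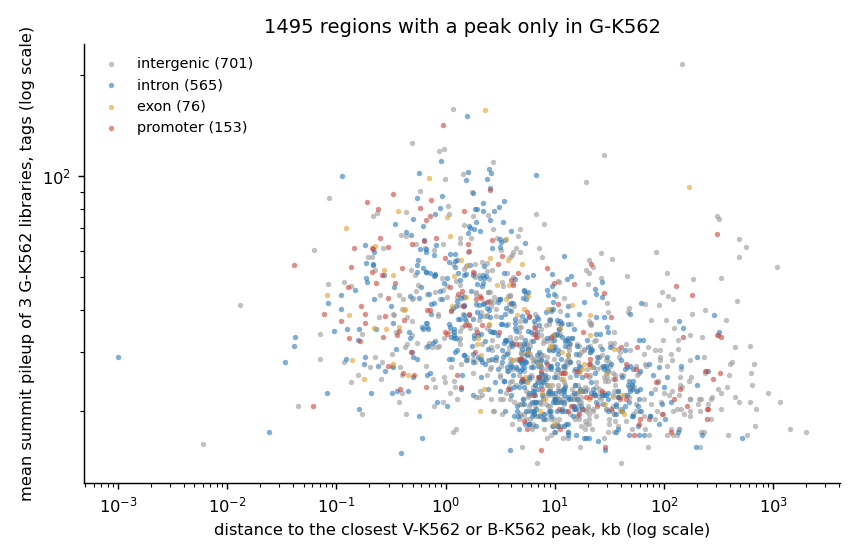
Each point is 1 of the 1495 regions, with the distance in kb to the closest peak of any V-K562 or B-K562 library on the x axis and the mean summit pileup in tags on the y axis, both on log scales, coloured by genomic feature. The median distance is 6.55 kb, and the highest region, at 216 tags, stands apart from peaks of the other lines.

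Most of the regions lay away from promoters. With GENCODE v44 protein-coding transcripts, 153 summits (10.2%) fell in a promoter, taken as 1000 bases before to 100 bases after a start, 76 (5.08%) in an exon, 565 (37.8%) in an intron and 701 (46.9%) between genes. The shares over all 85549 regions were 16.4% promoter, 4.16% exon, 37.4% intron and 42.1% intergenic. The median distance to a coding start was 22.4 kb, against 16.6 kb over all regions, 20.3 kb for the 632 regions with peaks only in B-K562 and 38.4 kb for the 1525 with peaks only in V-K562. The promoter share was 8.70% in the former and 3.21% in the latter. Median GC content of the windows was 53.2%, against 52.7% over all regions, 50.5% in the B-K562 regions and 47.3% in the V-K562 regions. Of the 1495, 247 (16.5%) lay within 1 kb of a peak of another line and 193 (12.9%) lay beyond 50 kb of any.

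The windows held fewer GATA motifs and more RUNX motifs than accessible regions at large. AGATAA, the core bound by GATA factors, stood in 133 windows (8.90%), against 18.8% of all regions, 45.9% of the B-K562 regions and 33.4% of the V-K562 regions. TGTGGT, bound by RUNX factors, stood in 399 windows (26.7%), against 16.8%, 21.4% and 15.2%. In the 217 regions with peaks only in B-K562 and G-K562 the shares were 6.91% for GATA (15 windows) and 17.97% for RUNX (39 windows). In the 26984 regions with a peak in all 9 libraries they were 12.8% and 13.65%. A low share of GATA motifs was thus not particular to the 1495 regions. TGTTTAC, bound by forkhead factors, reached 6.96% against 3.65% of all regions, and TAATTA, bound by LIM and many other homeobox factors, 4.95% against 2.42%. Within 50 bases of the summit the shares were 4.21% for GATA against 11.5% of all regions, 15.4% for RUNX against 9.69%, 4.62% for forkhead against 1.997% and 2.74% for TAATTA against 1.03%, so the order in each pair was kept. Among all regions weighted to the GC content of the 1495, the shares within 100 bases were 18.4% for GATA, 16.7% for RUNX, 3.65% for forkhead and 2.38% for TAATTA.

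RUNX motifs were mainly distal. They stood in 388 of the 1342 windows outside promoters (28.9%) and in 11 of the 153 promoter windows (7.19%), against 18.6% and 7.495% over all regions. TAATTA stood in 5 of the 153 promoter windows (3.27%), against 0.627% of all promoter windows. RUNX motifs stood in 68 of the 216 regions with a mean pileup of at least 50 tags (31.5%) and in 331 of the 1279 lower ones (25.9%). GATA motifs stood in 11 of the 216 (5.09%) and in 122 of the 1279 (9.54%). At least 1 of the RUNX, forkhead and TAATTA motifs stood in 514 windows (34.4%), against 21.5% of all regions.

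Most other motifs were closer to their share of all regions. TGANTCA, bound by AP-1, stood in 15.1% of the windows against 17.2% of all regions, 9.65% of the B-K562 regions and 29.3% of the V-K562 regions. GCTGANTCA, the longer form bound by MAF and NF-E2 and a part of the AP-1 matches, stood in 3.01% against 4.20%. CNAGNNGGC, a short CTCF core, stood in 16.5% against 19.7%, GGGCGG (SP and KLF) in 19.4% against 20.3%, CCAAT (NF-Y) in 24.7% against 23.4%, and GGAATG (TEAD) in 9.10% against 10.4%. GCGTGGGNG, bound by EGR factors and WT1, stood in 2.41% against 1.34% of all regions, 1.27% of the B-K562 regions and 0.197% of the V-K562 regions. Its share was close to the 2.001% of regions with a peak in all 9 libraries and the 2.30% of regions only in B-K562 and G-K562. The remaining motifs were CCGGAAGT (ETS), CACGTG and CAGCTG (E-boxes 1 and 2), GGGTGTGG (KLF), ATGCAAAT (octamer), AAGATGGCG (YY1), TTCNNNGAA (STAT), GAAANNGAA (IRF), TTGCNNAA (C/EBP), GGNNTTTCC (NF-kB) and GCATGCGC (NRF1), each found in 0.201% to 15.9% of the windows. Of these, AAGATGGCG stood in 3 windows (0.201%, against 0.587% of all regions) and CCGGAAGT in 12 (0.803%, against 1.34%). A match is a run of letters and does not show that the factor was bound.

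**Figure D2:**
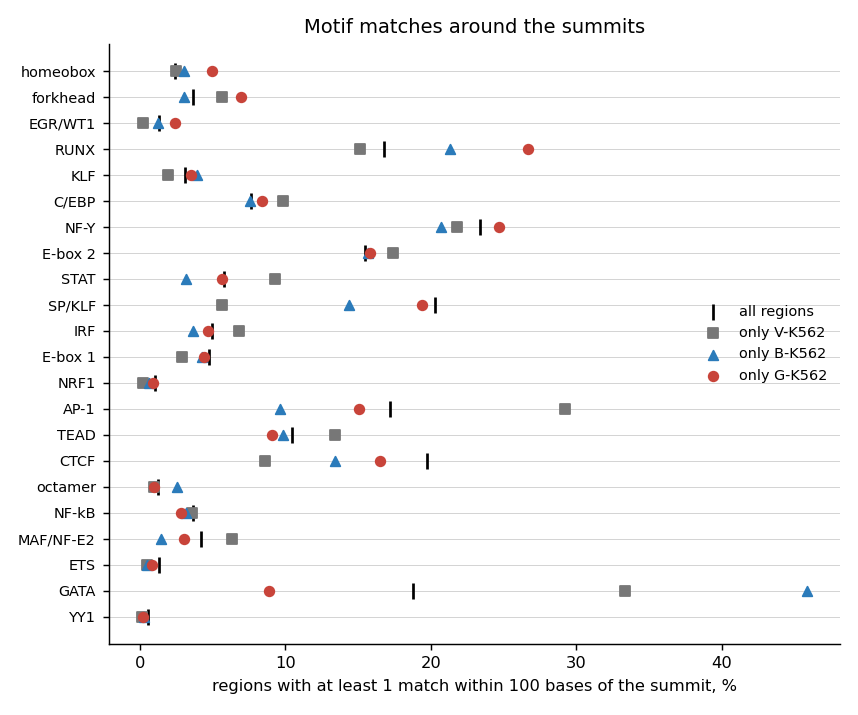
The share of regions with at least 1 match within 100 bases of the summit is shown in percent for 22 motifs, for all 85549 regions (black bars) and for regions with peaks only in G-K562 (circles), only in B-K562 (triangles) and only in V-K562 (squares), ordered by the ratio of the G-K562 share to that of all regions. RUNX stands to the right of the other groups shown at 26.7% and GATA to their left at 8.90%.

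The highest region of all, chr5:19288014-19288769, had summits of 233, 213 and 202 tags, 216 ± 15.7 (SD, n = 3), and lay 184.5 kb beyond the end of CDH18, a neuronal cadherin gene. The closest peak of V-K562 or B-K562 was 145.5 kb away. Counting itself, 26 of the 1495 windows (1.74%) held at least 5 of the 16-base runs of this region's window, against 0.203% of all regions. The 26 lay on 14 chromosomes, so the sequence is a repeated one. The part of this repetition in the height of the peak was not tested. CDH18 RNA was 7, 1 and 7 in V-K562, 28, 27 and 20 in B-K562 and 175, 188 and 194 in G-K562, in normalised read counts for replicates 1, 2 and 3. G-K562 stood above both other lines without overlap, by 5.21 ± 0.44 (log2, SE) over V-K562, and B-K562 above V-K562 by 2.35 ± 0.49. No V-K562 library reached 10, so the gene entered each of these comparisons only through the line in which it was higher, and the differences are given as descriptions. Because of its distance the gene is not among the closest genes counted below.

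The other 7 regions of greatest height lay 0.487 to 2.28 kb from a peak of another line. The second, chr6:44062864-44063136, had summits of 174, 153 and 150 tags in the body of LOC101929705, an uncharacterised gene, and held a CTCF core, and LOC101929705 RNA was 66, 56 and 53 in V-K562, 4, 4 and 6 in B-K562 and 27, 38 and 39 in G-K562. The third, chr9:129888392-129888833, had 145, 141 and 185 tags in an exon near the end of FNBP1, which encodes a membrane-bending protein of endocytosis. FNBP1 RNA was 625, 737 and 661 in V-K562, 771, 681 and 730 in B-K562 and 5222, 3984 and 5733 in G-K562. The G-K562 values were higher than V-K562 by 2.87 ± 0.12 (log2, SE) and than B-K562 by 2.73 ± 0.11, adjusted p = 3.55e-09 and 1.95e-11, limma.

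The next 4 regions, chr19:45767440-45767720 in SIX5 (147, 147 and 159 tags), chr19:38851847-38852147 at the HNRNPL promoter (122, 154 and 149), chr11:65421252-65421519 upstream of NEAT1 (115, 131 and 132) and chr19:48963866-48964141 upstream of FTL (132, 110 and 119) lay within 2 kb of the start of their closest gene. SIX5, a homeobox factor, was higher in G-K562 than in V-K562 by 1.004 ± 0.068 (log2, SE, adjusted p = 1.88e-07, limma), at the edge of the 2-fold limit, and 5 of its alternative settings put it under that limit. HNRNPL, a splicing factor, differed by -0.15, the nuclear long non-coding RNA NEAT1 by -0.10 and FTL, the ferritin light chain, by -0.34, none of which is a 2-fold change. The FTL window, printed above, holds a MAF and NF-E2 motif 53 bases before the summit. The last of the 8, chr11:1989861-1990299 with 122, 120 and 114 tags, belongs to the H19 locus described below.

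RNA of the genes closest to the regions was more often higher in G-K562 than RNA of genes at large. A RefSeq gene lay within 10 kb of 1057 of the 1495 summits (70.7%), 818 of them inside its body, and these were 951 genes. RNA values are counts that the authors divided by a size factor per library, and a gene was tested if it reached 10 in at least 3 libraries. A gene was called at an adjusted p of at most 0.05 (limma-trend on log2 of the value + 1, over all genes) and at least a 2-fold change. Of the 951 genes, 723 passed the filter for G-K562 against V-K562. In 38 of them all 3 G-K562 libraries and no V-K562 library reached 10, and in 10 the reverse held. Those genes had to differ in the direction that let them pass, so the counts are also given below for genes at 10 or more in every library. Of the 228 that did not, 39 were at 0 in all 9 libraries.

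Against V-K562, 153 of the 723 genes rose (21.2%), against a background of 8.81% of all genes tested, 63 fell (8.71%, background 10.3%) and 507 were not called. Their median difference was 0.21 (log2), against 0.00 over all genes. Against B-K562, 238 of 728 rose (32.7%, background 17.4%) and 59 fell (8.10%, background 12.5%), with a median of 0.35 against -0.02. In B-K562 against V-K562, lines that both lack these peaks, 37 of 675 rose (5.48%, background 6.46%) and 134 fell (19.9%, background 14.1%). Both lines with BASP1 were compared with the same V-K562 libraries, and both comparisons of G-K562 rest on the same G-K562 libraries, so these counts are not independent. Among the 630 genes at 10 or more in every library of G-K562 and V-K562, 101 rose (16.03%, against 6.73% of all such genes) and 43 fell (6.83%, against 7.35%). For the 591 at 10 or more in every library of G-K562 and B-K562, 141 rose against B-K562 (23.9%, against 13.03% of all such genes) and 45 fell (7.61%, against 10.85%).

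The share of genes that rose was highest where a region lay at the gene start. Of the 118 tested genes with a region within 1 kb of the annotated start, 53 rose against V-K562 (44.9%) and 3 fell (2.54%). Of the 178 with the closest region at 1 to 10 kb from the start, 35 rose (19.7%) and 11 fell (6.18%). Of the 427 with it beyond 10 kb, 65 rose (15.2%) and 49 fell (11.5%). Against B-K562 the shares that rose were 51.3%, 33.5% and 27.2%. Among genes at 10 or more in every library of G-K562 and V-K562, 27 of 88 rose within 1 kb (30.7%), 23 of 159 at 1 to 10 kb (14.5%) and 51 of 383 beyond it (13.3%). Against B-K562, among genes at 10 or more in every library of both lines, the numbers were 28 of 83 (33.7%), 41 of 153 (26.8%) and 72 of 355 (20.3%). Differences between the distance classes were not tested. Between the highest mean pileup beside a gene and its difference in RNA the Spearman correlation was 0.079 across 723 genes, which are not independent replicates. Genes closest to regions with a RUNX motif rose in 43 of 234 cases (18.4%), and those closest to a region without in 124 of 521 (23.8%).

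The same reading at other regions gave other shares. Genes closest to the V-K562 regions rose in G-K562 against V-K562 in 9.36% of cases and fell in 18.3%. Genes closest to the B-K562 regions rose in 4.64% and fell in 18.3%. For regions with a peak in all 9 libraries the shares were 6.94% and 7.80%. For regions with peaks only in B-K562 and G-K562 they were 16.8% (21 of 125 tested genes) and 6.4% (8 genes). A share of rises over V-K562 above the 8.81% of all genes was thus not particular to the regions described here. Against B-K562, 17.3% of the genes closest to those shared regions rose, against 17.4% of all genes tested. These are descriptions of lists that share genes, and their differences were not tested.

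**Figure D3:**
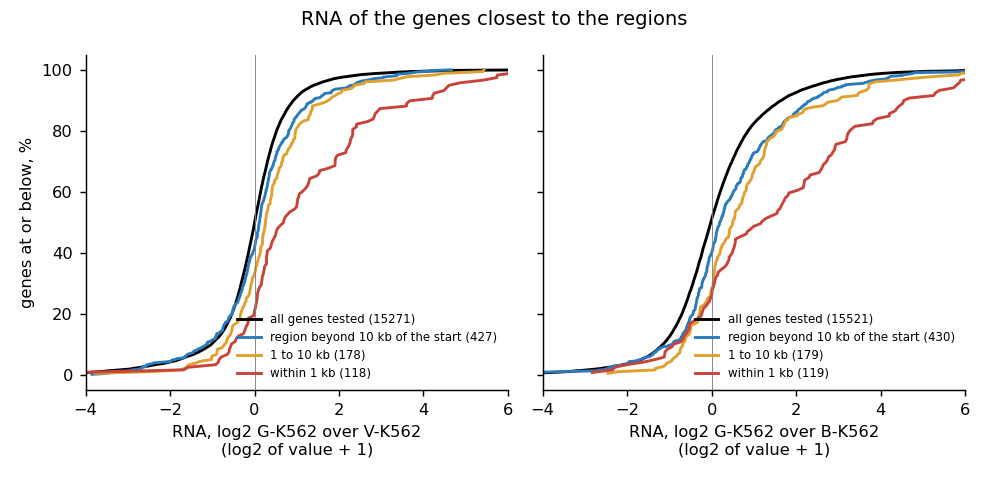
Each curve is the cumulative percent of genes (y axis) at or below a difference in RNA (x axis, log2 of value + 1), for G-K562 over V-K562 on the left and over B-K562 on the right. Genes with a region within 1 kb of their start (red) lie furthest to the right in both, with 118 genes on the left, and genes beyond 10 kb (blue) lie closest to all genes (black).

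In none of the 12 genes with the largest called rise did more than 1 V-K562 library reach 10. They were tested only through their G-K562 values, so their differences are given as descriptions, without a p. The largest was at EFEMP1, which encodes the extracellular matrix protein fibulin-3. Its RNA was 5, 3 and 11 in V-K562, 0, 3 and 2 in B-K562 and 960, 1160 and 1046 in G-K562, 7.32 ± 0.31 above V-K562 (log2, SE). The region chr2:55923378-55924070 stood at its promoter, 408 bases inside the gene, with 42, 64 and 58 tags. HDAC9, a class IIa histone deacetylase, had values of 9, 9 and 9 in V-K562, 1, 3 and 5 in B-K562 and 756, 740 and 759 in G-K562, 6.23 ± 0.13 above V-K562. Its region, chr7:18086195-18087111, lay 425 bases before the start with 24, 34 and 35 tags, 57.1 kb from any peak of the other lines. RBMS1, an RNA-binding protein gene, went from 5, 2 and 5 in V-K562 through 37, 38 and 38 in B-K562 to 267, 245 and 253 in G-K562, and was above V-K562 in both lines with BASP1 (by 5.75 in G-K562 and 3.20 in B-K562 on the log2 scale).

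PCLO encodes the presynaptic scaffold piccolo, and its RNA was 7, 0 and 0 in V-K562, 0, 2 and 1 in B-K562 and 101, 95 and 122 in G-K562, with a region of 44, 87 and 71 tags, chr7:83162475-83163181, at its start. That region was 305.1 kb from the closest peak of another line. GRIA4, an AMPA receptor subunit, was listed at 0 in all V-K562 and B-K562 libraries and at 21, 31 and 22 in G-K562, with its region, chr11:105960218-105961060, in an intron 350.4 kb from the start. Between 100 and 110 Mb of chromosome 11, where it lies, the 32 regions with peaks in all 9 libraries were higher in G-K562 than in V-K562 by a median of 0.53 (log2, relative to all such regions), and the part of that in GRIA4 was not tested. BCHE, butyrylcholinesterase, was 11, 8 and 8 in V-K562, 3, 2 and 0 in B-K562 and 411, 420 and 424 in G-K562, 5.40 ± 0.17 above V-K562. Its region, chr3:165839712-165840025, held 2 RUNX motifs. In all of them G-K562 stood above the other lines without overlap.

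The other 6 of the 12 largest rises had the same form. SLC2A5, the fructose transporter GLUT5, was 5, 4 and 7 in V-K562, 2, 3 and 6 in B-K562 and 333, 185 and 310 in G-K562, and its region, chr1:9077969-9078393, 6.47 kb upstream, was the highest of the 12 at 117, 86 and 104 tags. RCAN2, a calcineurin regulator, was 0, 3 and 3 in V-K562 and 108, 104 and 105 in G-K562. CNTNAP3B, of the contactin-associated family, was 7, 2 and 3 in V-K562 and 105, 106 and 120 in G-K562. POTEF was 8, 4 and 6 in V-K562 and 174 to 221 in G-K562. Both POTEF and CNTNAP3B have near-identical copies, so the assignment of their reads and peaks is uncertain. LINC01351 and LOC100240735, non-coding RNA genes, reached 13 to 44 and 35 to 47 in G-K562, the former listed at 0 in every library of the other lines. Of the 12 regions, 9 lay within 1 kb of the gene start.

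**Figure D4:**
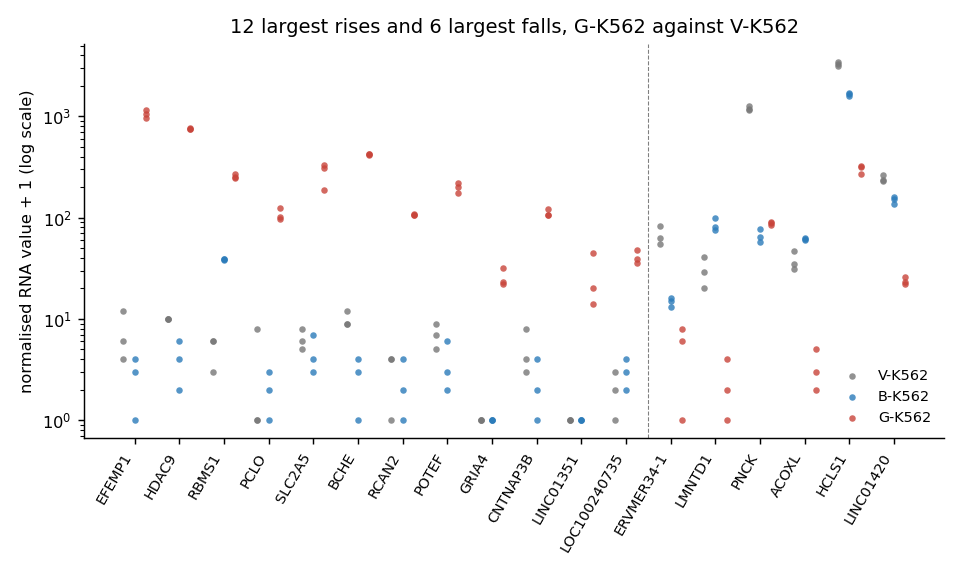
Normalised RNA values + 1 are shown on a log axis for each library of V-K562 (grey), B-K562 (blue) and G-K562 (red), for the 12 genes with the largest called rise and, right of the dashed line, the 6 with the largest called fall among genes closest to the regions. The G-K562 points lie above both other lines in each of the 12 rises, with EFEMP1 at 960 to 1160.

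Genes also fell next to regions with a peak only in G-K562. ERVMER34-1, a gene from an endogenous retroviral envelope, was 54, 82 and 62 in V-K562, 15, 14 and 12 in B-K562 and 7, 0 and 5 in G-K562, although its region, chr4:52751542-52751853, lay 51 bases from its start with 16, 17 and 14 tags. HCLS1, a haematopoietic cortactin-like signalling protein, was 3300, 3133 and 3444 in V-K562, 1653, 1686 and 1583 in B-K562 and 271, 324 and 316 in G-K562, a fall of 3.44 ± 0.081 (log2, SE), adjusted p = 8.80e-11, limma. PNCK, a calmodulin-dependent kinase, was 1192, 1254 and 1143 in V-K562 but 77, 56 and 63 in B-K562 and 84, 89 and 88 in G-K562, so it fell in both lines with BASP1. LMNTD1, with a lamin tail domain, and ACOXL, of the acyl-CoA oxidase family, were at 3 or less and at 4 or less in every G-K562 library, below 19 to 40 and 30 to 46 in V-K562. LINC01420 was 261, 228 and 233 in V-K562 and 22, 25 and 21 in G-K562. ERVMER34-1, LMNTD1 and ACOXL were tested only through their V-K562 values. In 4 of these 6 the region was in the gene body more than 10 kb from the start.

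Some genes had several regions. A single region was closest to 872 genes, 2 to 64 genes and 3 or more to 15 genes. Of the tested genes, 126 of 659 rose against V-K562 with 1 region (19.1%), 19 of 51 with 2 (37.3%) and 8 of 13 with 3 or more (61.5%), and 60, 3 and 0 fell. At 10 or more in every library of G-K562 and V-K562 the genes that rose were 80 of 572 (13.99%), 15 of 47 (31.9%) and 6 of 11 (54.5%). These are small groups, and their differences were not tested. Longer genes have more room for regions, and the part of gene length in this was not tested.

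UTRN, which encodes the dystrophin relative utrophin, had 5 regions, the first 2 in an intron at 0.963 and 1.84 kb from the start with 52, 66 and 57 tags and 61, 71 and 78 tags. UTRN RNA was 631, 671 and 635 in V-K562, 264, 234 and 220 in B-K562 and 2612, 2032 and 2692 in G-K562. It rose over V-K562 by 1.91 ± 0.097 (log2, SE, adjusted p = 2.10e-08, limma) and was lower in B-K562 than in V-K562 by 1.41. MAML3, a Notch coactivator, had 3 intronic regions of 20 to 56 tags and RNA of 57, 67 and 44 in V-K562, 110, 123 and 96 in B-K562 and 694, 637 and 736 in G-K562, 3.62 ± 0.15 over V-K562. ZNF608, a zinc finger gene, was 75, 82 and 70 in V-K562, 74, 57 and 62 in B-K562 and 777, 761 and 967 in G-K562, 3.44 ± 0.12 over V-K562. It had 4 regions within 10 kb and 2 more upstream, and 3 of the 4 held a RUNX motif.

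CDCP1, a transmembrane glycoprotein of cell adhesion, had 3 regions, in an exon, in an intron and 10 bases before its start, and RNA of 1048, 1244 and 1210 in V-K562, 746, 822 and 813 in B-K562 and 6516, 5269 and 6988 in G-K562. It rose by 2.42 ± 0.10 over V-K562 and by 2.94 ± 0.093 over B-K562. FMN1, an actin-nucleating formin, was 30, 35 and 56 in V-K562, 7, 17 and 19 in B-K562 and 288, 212 and 330 in G-K562. CPPED1, a phosphatase gene, was 1726, 1781 and 1866 in V-K562 and 3889, 3388 and 3878 in G-K562, and 2 long non-coding RNA genes, LINC00882 (8, 2 and 6 against 56, 72 and 49) and LINC01122 (2, 3 and 1 against 26, 16 and 14), were higher as well but passed the filter through G-K562 alone. The 5 tested genes that were not called were BCL9 at 0.67, CLEC16A at 0.80, ANKRD11 at 0.42, MRPL23 at -0.15 and INPP5F at -0.17 (log2, G-K562 over V-K562). GPC5 and RBFOX3 did not reach 10 in any library.

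**Figure D5:**
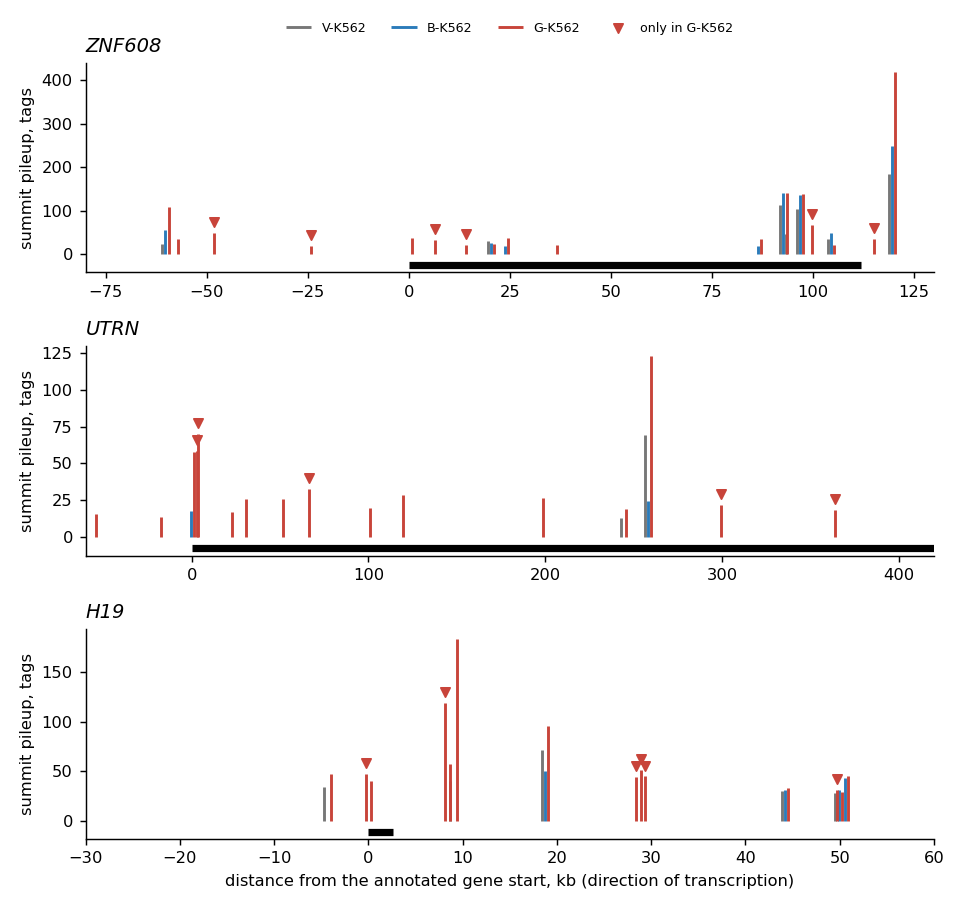
Mean summit pileup in tags over the libraries with a peak is plotted against distance from the annotated gene start in kb, in the direction of transcription, for V-K562 (grey), B-K562 (blue) and G-K562 (red), with the gene as a black bar and triangles on regions with a peak only in G-K562. At UTRN the first 2 triangles stand at 58.3 and 70 tags just inside the gene, and red lines without a triangle are regions with a peak in fewer than 3 G-K562 libraries or in another line as well.

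The regions were mainly scattered, with some clusters. Chained within 50 kb of each other they formed 1365 loci, of which 1258 held 1 region, 93 held 2 and 14 held 3 to 7. The locus with most, 7 regions over 186.8 kb of chromosome 13 (chr13:92313816-92500616), lay in introns of GPC5, a cell-surface heparan sulphate proteoglycan gene, at 22.7 to 50.3 tags on average. GPC5 RNA was at most 3 in every library of all lines. At the end of that locus the window printed above holds TAATTA, RUNX and forkhead motifs.

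The second cluster, 6 regions over 50.4 kb (chr11:1948248-1998668), ran from MRPL23 to H19, the imprinted long non-coding RNA gene next to IGF2. MRPL23 is the closest gene by the rule because its annotated span covers the locus, and its RNA, a mitochondrial ribosomal protein mRNA, was 1763, 1792 and 1720 in V-K562 and 1544, 1678 and 1548 in G-K562. H19 was looked at after the regions had been seen. Its RNA was 1148, 329 and 294 in V-K562, 720, 186 and 141 in B-K562 and 10611, 13821 and 10998 in G-K562, with replicate 1 the highest in both other lines. The lowest G-K562 library stood above all of them, and the rise over V-K562 was 4.61 ± 0.39 (log2, SE), adjusted p = 1.01e-06, limma. The last region of the cluster, chr11:1998325-1998668 with 42, 43 and 56 tags, lay 645 bases before the H19 start as annotated in the tables. MRPL23-AS1, the antisense gene between them, was 4, 4 and 5 in V-K562, 1, 1 and 0 in B-K562 and 44, 40 and 52 in G-K562, and where reads are counted without strand its reads and those of MRPL23 cannot be told apart.

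Of the other clusters, chr21:42140208-42199751 held 4 regions from UMODL1 to ABCG1, a cholesterol exporter whose start was 126 bases from the last of them. ABCG1 RNA was 6, 2 and 5 in V-K562, 2, 1 and 3 in B-K562 and 23, 23 and 32 in G-K562, 2.41 ± 0.37 (log2, SE) above V-K562. No V-K562 library reached 10, so the gene was tested only through its G-K562 values and the difference is a description. UMODL1 was at 2 or less in every library. The cluster chr5:124735218-124798137 held the 2 ZNF608 regions nearest its start and the 2 upstream of it. A cluster of 3 on chromosome 3 (chr3:24645122-24678802) lay 123.8 kb or more from its closest gene, MIR4792, and reached 98, 78 and 93 tags, and chr3:45095263-45146607 was that of CDCP1.

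By chromosome the regions were 1.75 per 100 accessible regions overall. The figure was 3.24 on chromosome 13, 3.10 on chromosome 21, 2.78 on chromosome 14 and 0.987 on chromosome 19. On chromosome 14 the excess lay beyond 70 Mb, with 46 regions or 3.81 per 100, against 1.64 nearer the centromere. In that stretch the 359 regions with peaks in all 9 libraries were also higher in G-K562 than in V-K562, by a median of 0.60 (log2, relative to all such regions), and the genes tested there by a median of 0.62. The stretch thus moved as a whole in both assays, and what part of the 46 regions follows from that was not tested. Without it 1449 regions were left, and of the 703 tested genes closest to them 144 rose against V-K562 (20.5%) and 63 fell. On chromosomes 13 and 21 the same medians were 0.075 and 0.044 for the regions.

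The genes of the factors whose motifs were searched fall into small families. Their counts stand against 8.81% of all tested genes called higher and 10.3% called lower in G-K562 against V-K562, and at these sizes a count of 1 or 2 genes is no result about a family. Of RUNX1, RUNX2, RUNX3 and their partner CBFB none rose by 2-fold over V-K562, and RUNX3 fell from 66, 49 and 49 to 7, 7 and 9, having been tested through V-K562 alone. RUNX1 was 2770, 2517 and 2562 in V-K562, 3517, 3497 and 3607 in B-K562 and 4953, 4377 and 4489 in G-K562, a difference of 0.82 ± 0.065 over V-K562 (log2, SE, adjusted p = 6.96e-07, limma) that is under 2-fold. RUNX2 was 340, 294 and 314 in V-K562, 60, 63 and 58 in B-K562 and 544, 527 and 586 in G-K562, 3.15 ± 0.093 over B-K562. Of 6 GATA genes 5 were tested, and GATA5 alone was called, from 29, 28 and 29 in V-K562 to 140, 144 and 115 in G-K562. GATA1, the main erythroid GATA factor, was lower in G-K562 by 0.56 ± 0.053, 8207, 8194 and 8196 against 5819, 5560 and 5347, under the 2-fold limit. RUNX1, RUNX2 and GATA1 were named after their values had been seen.

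Among homeobox genes of the LIM class 5 of 11 were tested. LHX1, tested only through its G-K562 values, was 3, 2 and 0 in V-K562 and 209, 260 and 293 in G-K562, and LHX3 rose from 29, 22 and 32 to 116, 97 and 125. Of 10 forkhead genes 6 were tested, FOXA2 (85, 88 and 91 to 483, 389 and 486) and FOXO1 (58, 62 and 57 to 304, 291 and 247) rose and FOXA1 (172, 189 and 157 to 53, 66 and 50) fell. Of 11 AP-1 genes 4 rose (FOS, FOSB, FOSL2 and BATF3) and none fell, and FOS was 1557, 3993 and 959 in G-K562, so replicate 2 stood apart. Of the 16 tested ETS genes 3 rose (ERG, ETV1 and ETV5) and ETS1 fell, and of the 9 tested MAF and NF-E2 genes NFE2L1 rose and NFE2L3 fell. In the remaining families 1 of 6 TEAD genes (TEAD2), 1 of 4 tested POU genes (POU3F2) and 1 of 11 tested IRF and STAT genes (IRF1) rose, and 1 of 5 C/EBP genes (CEBPE) fell. Of the genes in these families 11 were themselves closest to a region of the 1495, where 951 of all 28395 genes were. Among all tested genes closest to a region 21.2% rose against V-K562, and the 11 are too few for a result about a family. GATA5, ERG, ETV5, FOXA2 and FOXO1 were called higher, ERG through G-K562 values alone, and BATF at 0.19, MAFG at -0.09, YAP1 at 0.07, POU2F2 at -0.17 and FOXP1 at 0.29 (log2, G-K562 over V-K562) were not called. FOXP2 was not tested.

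Lineage markers are read against the same 8.81% higher and 10.3% lower of all genes tested. Of 13 erythroid genes 9 fell in G-K562 against V-K562 and none rose, and none was below 10 in all 3 libraries of a line. In V-K562 their summed values lay between 118080 and 134887. B-K562 stood higher, between 213859 and 218673, and G-K562 lower, between 62939 and 69011. HBG2, a fetal globin gene, was 37719, 41997 and 35315 in V-K562 and 5396, 5597 and 5347 in G-K562. Of 10 megakaryocyte genes 4 were tested and 2 fell, ITGA2B and TUBB1, with 6 of the 10 below 10 in every G-K562 library. Of 9 myeloid genes 5 were tested and 2 rose, ITGAM (39, 45 and 56 to 297, 301 and 298) and LYZ (1353, 1323 and 1369 to 4301, 3822 and 3772). Of 6 lymphoid genes 4 were tested and 2 fell (CD3D and PTPRC), of 6 fibroblast genes 5 were tested and 1 fell (PDGFRB), and of 6 neuronal genes 2 were tested and 1 fell (SYT1). Apart from the erythroid list these numbers are too small to be read as a result about a lineage. Fewer cells of a kind and less RNA per cell cannot be told apart in these bulk samples, and the part of the change in lineage markers in the 1495 regions was not tested.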

How the data were processed

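Peaks and RNA came from 18 K562 samples, 3 per line and assay. The study names them biological triplicates, but each line is 1 pool of cells, so p-values measure the spread between libraries of a pool. According to the methods of the study, ATAC-seq reads were mapped to GRCh38 with BWA-MEM, duplicates were removed, uniquely mapped reads were kept and peaks were called per library with MACS2. The deposited peak signal is the tag pileup at the summit, with libraries sampled to equal tag numbers by the authors. RNA-seq reads were mapped with STAR and assigned to RefSeq genes with Subread, and the deposited RNA signal holds counts that the authors divided by DESeq2 size factors, separately in each of 2 tables, and rounded to whole numbers. The depth of each library is thus unknown from the values, whose totals were 32342190 to 33229588. The columns of line means, fold changes, standard errors and p-values of the authors' own comparisons were not used.

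Intervals were merged where they overlapped. The members and gene lists were chosen with earlier results of these data known. The gene closest to the mean summit within 10 kb was taken from the exons given in the RNA tables, leaving out 8 of 28395 genes with copies far apart. Windows and motifs were read from GRCh38. G-K562 against V-K562 and B-K562 against V-K562 were each tested with limma 3.58.1 (R 4.3.3), with trend, on log2(value + 1) within the table that holds both, two-sided, with Benjamini-Hochberg adjustment, for genes at 10 or more in at least 3 libraries. For G-K562 against B-K562 the 9 libraries were fitted together after B-K562 values had been multiplied by 1.017, the ratio of the V-K562 values between the tables. B-K562 values are printed as deposited. Python 3.11.15 was used otherwise, and the fit was checked on simulated data. Named were the 8 highest and 2 lowest regions, the 6 largest loci, their closest genes, the 12 largest rises and 6 largest falls, and genes closest to at least 3 regions, with up to 4 called members per list. Some sequences are not reported here.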

Additional observations from a re-analysis of the deposited data

How the results depend on the processing

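The number of regions depended on the peak threshold and on the libraries. It was 504 when each G-K562 summit had to reach 30 tags, and between 1595 and 2400 with any 1 library left out, the highest without G-K562 replicate 2. Both directions were fixed in advance, as a threshold on the G-K562 summits alone adds a condition and leaving out a library removes one. A threshold on all libraries could also add regions, by dropping weak V-K562 or B-K562 peaks, and its count is not given here. Within 50 bases of the summit the shares were 4.21% for GATA, 15.4% for RUNX, 4.62% for forkhead and 2.74% for TAATTA, shorter windows holding fewer matches. With the closest gene start within 10 kb the numbers of genes that rose and fell were 92 and 13 against V-K562, 125 and 20 against B-K562, and 23 and 60 in B-K562 against V-K562. With all 3 pileups at 30 tags or more they were 73 and 19, 108 and 18, and 16 and 64. With the adjusted p alone they were 353 and 186, 394 and 195, and 224 and 304. The share of all genes called in that way is not given here, so these counts cannot be read as an excess. With a mean value of at least 50 the numbers were 98 and 37 against V-K562, 148 higher against B-K562 and 79 lower in B-K562 against V-K562. Of all genes at that mean, 6.65% were higher and 7.34% lower against V-K562. The shares were 13.3% higher against B-K562 and 9.73% lower in B-K562 against V-K562. The counts in this section show how far a number moved with a setting, not its excess over all genes. With 10 or more in every library of both groups, an alternative chosen after seeing the data as was leaving out distal chromosome 14, 101 were higher against V-K562 and 141 against B-K562. With 1 library left out the counts were 108 to 157 and 51 to 65 against V-K562, 56 to 60 lower against B-K562, and 30 to 38 and 103 to 138 in B-K562 against V-K562, and no gene count moved by 1.5 times in any of the 3 comparisons. A replicate block gave 153 and 63, 238 and 59, and 37 and 135, in the same order. Deviations of same-numbered libraries correlated between -0.08 and 0.136, and those of differently numbered ones between -0.16 and 0.208. Whether same-numbered libraries were prepared together cannot be read from these values. Of the 40 named genes tested, SIX5 alone changed its call, at 5 settings, and none changed sign.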
